A study of Mus musculus with 4 samples.

Results

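The natural killer cells of untreated tumours were 301 of the 8074 cells kept in the untreated libraries, and of 26014 cells kept in the whole series. They were chosen by raw UMI counts, where a UMI is 1 tagged RNA molecule. A cell was taken when Ncr1, Klrb1c and Klre1 together had at least 3 UMIs, Cd3d, Cd3e and Cd3g together at most 1, and Csf1r and Cd68 together at most 1, in a barcode with 200 or more genes and no more than 10% mitochondrial UMIs. The choice therefore rests on measured values of these 8 genes, and their levels below are a description only. There were 247 such cells in the WT library and 54 in the IFNaR-/- library, called KO here.

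Live CD45.2+ immune cells were sorted from mouse brains carrying tumours of Gl261, a mouse glioma line injected into the brain as a model of glioblastoma (GBM), and profiled by droplet single-cell RNA sequencing. The untreated groups were WT and IFNaR-/- mice on day 20, with no agent given and 1 library each. The other groups were WT and IFNaR-/- mice given 200 ug of anti-PD1 per mouse, an antibody against the checkpoint receptor PD-1, and sorted on day 25, again 1 library each. Suspensions were pooled before the sort, the number, sex and age of the mice are not given in the sources used here, and every group carried the tumour, so there was no tumour-free control. With 1 library per group there is no replicate spread and no test, and genotype cannot be told apart from library. Ratios carry exact 95% intervals that cover counting error only.

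Natural killer cells are innate lymphocytes that kill stressed or transformed cells with perforin and granzymes, without a rearranged antigen receptor, and that release interferon gamma and chemokines. Receptors for MHC class I, in mice among them many members of the Ly49 family, tune this killing. Type I interferon binds the receptor IFNAR1-IFNAR2 and acts through transcription factors that bind the interferon-stimulated response element in target promoters. In natural killer cells, type I interferon is known to promote priming and cytotoxicity.

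The summed UMIs of the natural killer cells were 1866806 in WT and 637542 in KO. The median cell had 5562 UMIs and 1985 genes in WT and 8574.5 UMIs and 2627 genes in KO, and the median mitochondrial share was 3.36% and 4.50%. The KO cells were thus fewer, deeper and higher in mitochondrial RNA, and values at equal depth are given where they move a result. No cell barcode was shared between the natural killer cells of the untreated libraries, and 3 were shared between these libraries as a whole.

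The cells carried natural killer markers that the choice did not use. Eomes, a transcription factor of conventional natural killer cells, stood at 307 CPM in WT (a gene's count relative to all UMIs of the summed cells) and at 284 CPM in KO, against 33.5 and 23.3 CPM in the CD8 T cells of the same libraries. Klra8, which encodes the activating receptor Ly49H, stood at 549 and 345 CPM, against 0.305 and 0 in CD8 T cells. These CD8 T cells were limited to 1 UMI of Ncr1, Klrb1c and Klre1 together. Cells with at least 3 natural killer UMIs and 2 or more Cd3 UMIs had Klra8 at 22.9 and 9.07 CPM. Their Eomes was at 50.2 and 49.8 CPM. Trac, the constant chain of the alpha-beta T cell receptor, was at 12.9 CPM in WT and 11.0 in KO, against 558 and 459 in CD8 T cells. Trbc1 and Trbc2, beta chain constant regions that natural killer cells can transcribe without rearrangement, were at 423 and 165 CPM in WT and 480.0 and 76.9 in KO. Of the markers of type 1 innate lymphoid cells, tissue-resident relatives of natural killer cells, Il7r was at 17.1 and 12.5 CPM, Cxcr6 at 13.9 and 34.5, Cd200r1 at 4.82 and 4.71, Tnfsf10 at 53.0 and 40.8, and Itga1 at 120.0 and 155. Eomes and Klra8 thus match the label of natural killer cells, and type 1 innate lymphoid cells among them were not set apart.

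**Figure D1:**
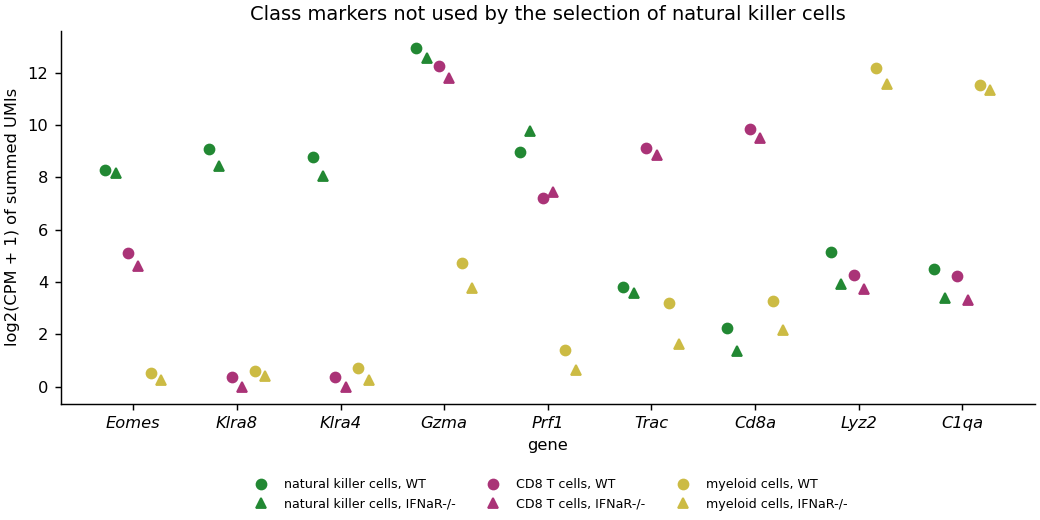
Levels of 9 marker genes that the selection of natural killer cells did not use, as log2(CPM + 1) of UMIs summed over natural killer, CD8 T and myeloid cells; circles are WT and triangles IFNaR-/-, with 1 library each. Klra8 and Klra4 were at 0.305 CPM or less in CD8 T cells and between 267 and 549 CPM in natural killer cells, while Lyz2 was at 4688 and 3006 CPM in myeloid cells and at 34.8 and 14.1 in natural killer cells. The CD8 T cells were limited to 1 UMI of Ncr1, Klrb1c and Klre1 together.

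Markers of other cell types were low in most of these cells. The summed level of 14 T cell markers was 672 CPM in WT and 616 in KO natural killer cells, with 1 and 4 markers at 0, against 7701 and 6190 CPM in CD8 T cells. The 18 monocyte and macrophage markers summed to 875 and 482 CPM, against 25760 and 25463 in myeloid cells. These lists include Cd3d, Cd3e, Cd3g, Csf1r and Cd68, which the rule capped in natural killer cells. The CD8 T and myeloid cells were in turn chosen for high counts of some of these genes. Part of each difference was thus set by the choice. Neutrophil markers summed to 9.64 CPM in WT and 554 in KO, and 1 KO cell held 347 of these UMIs. Dendritic cell markers summed to 135 and 248 CPM, and another KO cell held 101 of these UMIs. In all, 8 WT and 3 KO cells held 5 or more UMIs of neutrophil, dendritic, monocyte and macrophage or B cell markers. Results that move without them are given below.

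Cells just inside and just outside the rule were few, apart from those with T cell receptor complex RNA. Exactly 3 natural killer UMIs were found in 30 WT and 6 KO members, and 25 WT and 9 KO cells missed the rule with 2. A further 413 WT and 220 KO cells met the natural killer minimum but had 2 or more Cd3 UMIs. In these, Trac stood at 531 and 389 CPM, Cd8a at 755 and 628 CPM and Ncr1 at 9.41 and 14.6 CPM. They made up 7.85% of WT and 7.83% of KO kept cells.

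Natural killer cells were 4.69% of the kept WT cells (exact 95% interval 4.14 to 5.30%) and 1.92% of the kept KO cells (1.45 to 2.50%), a log2 ratio of -1.29. CD8 T cells, taken by Cd3 and Cd8 UMIs with at most 1 natural killer UMI, were 5.87% and 5.37%. This leaves out the cells above with both Cd3 and natural killer UMIs, 7.85% and 7.83% of kept cells. Among natural killer and CD8 T cells together, natural killer cells were 44.4% in WT (40.2 to 48.7%) and 26.3% in KO (20.5 to 32.9%). The lower KO share did not come with a lower CD8 T share of the same size, and the intervals of the natural killer share did not overlap. With every cell thinned to 2000 UMIs and at least 1 natural killer UMI asked for, the shares were 5.29% and 2.85%.

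Of the 19 gene lists other than cell type markers, interferon-stimulated genes had the lowest median log2 ratio in KO natural killer cells against WT. Among the cell type markers left out of this ranking, 6 measured genes of monocytes and macrophages had a lower median (-1.60 against -1.46). The promoters of 4 genes are shown first, since they carry matches to the core of the interferon-stimulated response element. Ifit3 and Ifi206 had no UMI in KO cells and Isg15 was at 12.5 CPM, and B2m, the light chain of MHC class I, differed less. Each line gives the 250 bases before the gene's start from RefSeq on GRCm38.p6, read 5′ to 3′ on the gene's strand. Capitals mark matches to GAAANNGAAA or, on the other strand, TTTCNNTTTC.
Isg15: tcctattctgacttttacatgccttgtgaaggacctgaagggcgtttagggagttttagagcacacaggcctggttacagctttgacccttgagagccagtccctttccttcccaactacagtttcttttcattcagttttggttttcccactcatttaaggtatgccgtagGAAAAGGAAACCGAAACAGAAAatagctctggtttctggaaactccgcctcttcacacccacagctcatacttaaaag
Ifit3: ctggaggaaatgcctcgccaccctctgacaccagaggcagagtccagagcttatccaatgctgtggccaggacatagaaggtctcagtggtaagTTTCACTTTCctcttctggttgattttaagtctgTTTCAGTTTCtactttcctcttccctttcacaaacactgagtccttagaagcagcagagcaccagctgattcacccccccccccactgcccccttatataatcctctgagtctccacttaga
Ifi206: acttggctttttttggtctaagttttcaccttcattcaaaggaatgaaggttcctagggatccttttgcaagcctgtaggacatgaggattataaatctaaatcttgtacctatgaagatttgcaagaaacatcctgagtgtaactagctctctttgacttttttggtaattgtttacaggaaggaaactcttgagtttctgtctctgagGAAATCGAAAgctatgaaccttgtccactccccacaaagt
B2m: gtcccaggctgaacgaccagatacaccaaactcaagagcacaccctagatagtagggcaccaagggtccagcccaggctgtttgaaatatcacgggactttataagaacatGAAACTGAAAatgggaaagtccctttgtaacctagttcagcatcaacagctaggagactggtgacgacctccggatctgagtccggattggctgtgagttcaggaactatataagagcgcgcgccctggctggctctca

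The Isg15 window lies at chr4:156200819-156201068 on the minus strand and holds 3 overlapping matches, the nearest 56 bases from the start. The Ifit3 window, at chr19:34583279-34583528 on the plus strand, holds 2 matches, the nearest at 112 bases. The Ifi206 window, at chr1:173491319-173491568 on the minus strand, holds 1 match at 30 bases. The B2m window, at chr2:122147437-122147686 on the plus strand, holds 1 match at 129 bases. Over all 32851 promoter windows of 300 bases in the RefSeq table, 3.44% hold the motif. The 4 windows were chosen after these genes' values were seen, and a match is a description of the letters and not a bound site. The table held 52 of the 70 genes of the interferon-stimulated list. Of these, 28 (53.8%) hold the motif, against 3.99% of all 27025 genes, and the others, Irf7 among them, do not. Of the interferon gamma list described below, 11 of 15 genes in the table (73.3%) hold it. Of the MHC class I list, 5 of 19 (26.3%) do. A link between the motif and the KO values was not tested.

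Isg15, a ubiquitin-like protein that is attached to other proteins, was at 116 CPM in WT and 12.5 CPM in KO natural killer cells, with a UMI in 34.4% and 13.0% of cells (log2 ratio -3.12). Ifi27l2a, a small interferon-induced membrane protein, had 201 UMIs in WT (108 CPM) and 0 in KO, and was at least 22.9-fold lower against a floor of 3 counts in the KO library. Ifi206, a p200 family gene of the class that senses DNA, had 113 and 0 UMIs and was at least 12.9-fold lower. Usp18, the protease that removes Isg15 and restrains interferon receptor signalling, had 74 UMIs in WT and 1 in KO, a ratio of 0.0396 (0.000989 to 0.227). These genes were thus scarce or undetected in KO natural killer cells and present in a minority of WT cells. Ifit3 had 21 UMIs in WT (11.2 CPM) and 0 in KO. Irf7, a transcription factor that amplifies interferon production, was at 60.5 CPM in WT and 15.7 in KO.

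Of 5668 genes with 50 or more UMIs in the pair, 182 (3.21%) were at least 2-fold lower in KO and 134 (2.36%) at least 2-fold higher, with a median log2 ratio of -0.01. The interferon-stimulated list had 45 members among them: 43 were lower in KO, where 51.2% of all genes were, 32 were at least 2-fold lower, and the median log2 ratio was -1.46. With every cell thinned to 2000 UMIs the median was -1.18. The members that were not lower were Ly6e (813 CPM in WT, 823 CPM in KO) and Ifitm3 (259 and 314 CPM). The other 21 members found in the files fell under 50 UMIs, and together had 488 UMIs in WT and 32 in KO, or 261 and 50.2 CPM. In CD8 T cells of the same libraries, 56 of 56 measured members were lower (37% of all 7479 genes were), with a median of -1.93. In myeloid cells all 66 were lower (46.1% of all 11407 genes were), with a median of -2.59.

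The difference was also visible cell by cell, although the cells overlapped. The list took a median of 0.542% of a WT natural killer cell's UMIs, from 0.168% to 3.34%, and a median of 0.327% of a KO cell's, from 0.156% to 0.683%. Without Ly6e, Shisa5 and Ifitm3 the medians were 0.352% and 0.161%. The highest WT cell held 60 UMIs of monocyte and macrophage markers, and the next was at 3.28%. Both exceeded every KO cell, and the lowest cells of both libraries lay close together. Free RNA from myeloid cells was read from their own markers: 16 macrophage markers stood in natural killer cells at a median of 0.737% (WT) and 0.412% (KO) of their myeloid level, and the 66 interferon-stimulated genes at 26.4% and 39.4%.

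**Figure D2:**
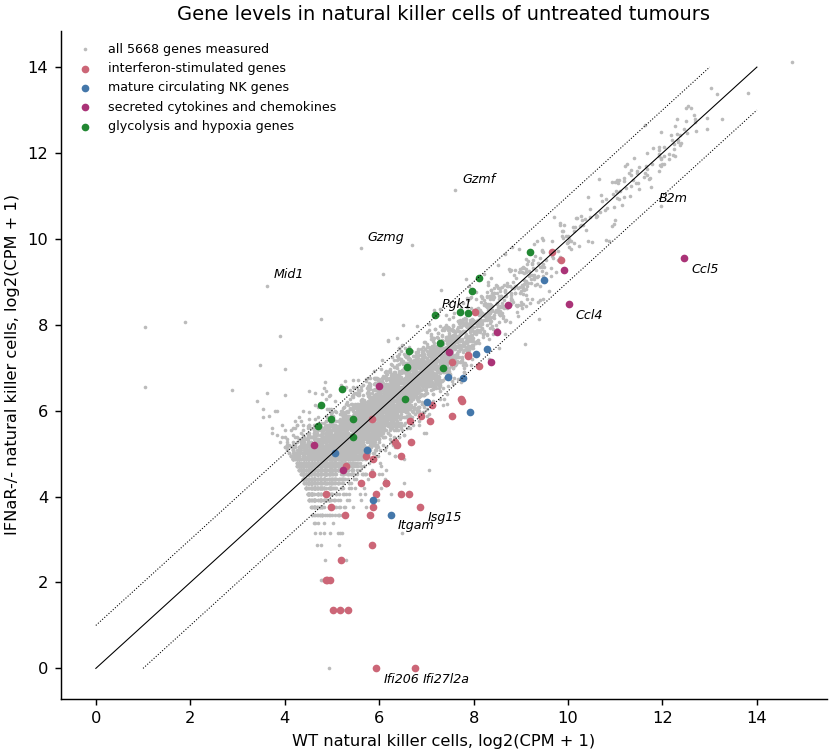
Each point is 1 of 5668 genes, with its level in WT natural killer cells on the x axis and in IFNaR-/- natural killer cells on the y axis, both as log2(CPM + 1) of UMIs summed over 247 and 54 cells; the solid line marks equal levels and dotted lines 2-fold differences. Interferon-stimulated genes, Ccl5 (5622 and 747 CPM) and Itgam (75.0 and 11.0 CPM) lie below the line, and Gzmf, Gzmg and Mid1 lie above it.

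Among genes with 50 or more UMIs, those driven mainly by interferon gamma and those of the MHC class I pathway differed less in their medians. Among 14 measured genes of the interferon gamma list, 11 were lower in KO (51.2% of all genes were). At least 2-fold lower were 3 (3.21% of all genes were), and the median was -0.44. Those 3 were Irgm1 (34.3 CPM in WT and 6.27 in KO), Gbp3 (50.9 and 15.7 CPM) and Igtp (34.3 and 11.0 CPM), GTPases of cell-autonomous defence. The 8 members under 50 UMIs summed to 109 UMIs in WT and 9 in KO, or 58.4 and 14.1 CPM (log2 ratio -1.98). Of 22 measured MHC class I genes, 16 were lower (51.2% of all genes were) and none passed 2-fold in either direction, with a median of -0.28. B2m was at 3470.1 and 2353 CPM (log2 ratio -0.56). H2-K1, a classical heavy chain, was at 2554 and 2048 CPM (-0.32), and its log2 ratio was 0.00019 when each cell was thinned to 2000 UMIs. MHC class I genes stood at 67.8% (WT) and 87.4% (KO) of their myeloid level in natural killer cells.

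Ifnar1 RNA stood at 82.5 CPM (WT) and 83.1 CPM (KO), and Ifnar2 RNA at 40.7 and 29.8 CPM. The labels do not say which subunit was disrupted or in which exon, and gene-level counts can include a disrupted transcript, so this checks nothing. Of the 16 measured JAK, STAT and SOCS genes, 9 were higher and 7 lower in KO.

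The most abundant chemokine RNAs were lower in KO natural killer cells. Ccl5, a chemokine that draws T cells and monocytes, was at 5622 CPM in WT and 747 in KO, with 10495 and 476 UMIs, and was 7.53-fold lower (6.87 to 8.27). It was found in 214 of 247 WT cells and 33 of 54 KO cells. In CD8 T cells Ccl5 was at 2252 CPM in WT and 1832 in KO (log2 ratio -0.30, against -2.91 in natural killer cells), and in myeloid cells its log2 ratio was -1.99. The difference between the classes was not tested. With every cell thinned to 2000 UMIs the log2 ratio of Ccl5 in natural killer cells was -2.13. Ccl4 and Ccl3, inflammatory chemokines, were at 1030.1 and 328 CPM in WT and at 356 and 139.6 CPM in KO. Ccl4 was 2.89-fold lower (2.52 to 3.33), against a log2 ratio of -0.19 in CD8 T cells. Ifng, encoding interferon gamma, was at 358 and 226 CPM (log2 ratio -0.66), and Xcl1, which attracts type 1 dendritic cells, at 962 and 618 CPM. In all, 8 of 10 measured secreted genes were lower (51.2% of all genes were), 3 of them at least 2-fold (3.21%), with a median of -0.62. The 9 members under 50 UMIs went the other way, with 53 UMIs in WT and 49 in KO together, or 28.4 and 76.9 CPM.

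RNAs of the Ly49 receptor family were mostly lower. Of 6 measured Ly49 genes 5 were lower (51.2% of all genes were), with a median of -0.68. The middle values were those of Klra8 (-0.67) and Klra4 (-0.70), which also define the states described below. Klra7 (Ly49G) was at 371 CPM in WT and 174 in KO, Klra9 (Ly49I) at 219.6 and 111, Klra4 (Ly49D) at 434 and 267, and Klra3 (Ly49C) at 106 and 86.3, with a log2 ratio of -0.28 that was 0.21 after thinning. Klra1 (Ly49A) was at 28.4 and 58.0 CPM, and 15 of its 37 KO UMIs lay in 1 cell. Ly49 genes are near-identical copies, so the split of reads among them is uncertain. Klra5, Klra6 and Klra10 had under 50 UMIs each.

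Among 25 other natural killer receptors and adaptors, 19 were lower (51.2% of all genes were), with a median of -0.44. The list includes Ncr1 and Klre1, which the choice used, and this median is the value of Ncr1, so it is a description only. The list's median in CD8 T cells was -0.03, but those cells were limited to 1 UMI of Ncr1, Klrb1c and Klre1 together. Sh2d1a, the adaptor SAP, was at 115 CPM in WT against 50.2 in KO, and Cd2, an adhesion receptor, at 129 against 58.0. Crtam, an adhesion receptor of activated cytotoxic cells, went the other way, at 15.5 and 36.1 CPM. The 7 measured checkpoint genes split into 4 higher and 3 lower, with Cish at 69.6 and 105 CPM and Cd96 at 63.7 and 69.0 CPM. The 16 cytokine receptors split into 8 and 8. Il10ra was at 69.1 CPM in WT against 20.4 in KO, and Il12rb2, the signalling chain of the IL-12 receptor, at 61.6 and 29.8. Both chains of the IL-18 receptor were lower, Il18r1 at 129 and 64.3 CPM and Il18rap at 175 and 94.1.

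Genes of mature circulating natural killer cells were lower in KO as a group. All 11 measured members were lower (51.2% of all genes were), 4 at least 2-fold (3.21%), with a median of -0.83, while 8 of the 11 members measured in CD8 T cells, not all of them the same genes, were higher (63% of all genes were), with a median of 0.25. The 4 members under 50 UMIs in natural killer cells summed to 142 UMIs in WT and 18 in KO, or 76.1 and 28.2 CPM. Itgam (CD11b), the integrin that marks the late stage of maturation, was at 75.0 CPM in WT and 11.0 in KO, 6.83-fold lower (3.23 to 17.3), with a UMI in 35.6% and 13.0% of cells. Cma1, a chymase, was at 57.3 and 14.1 CPM. Ly6c2 was at 241 and 61.2 CPM, and it was also lower in CD8 T cells (log2 ratio -4.21) and myeloid cells (-4.09). Zeb2, a transcription factor of terminal maturation, was at 219 and 108 CPM. A single KO cell held 36.2% of its KO UMIs, and without the members that held UMIs of another class the log2 ratio moved from -1.01 to -1.54. The 26 measured transcription factors, Zeb2 among them, included 17 lower and 9 higher, and Eomes and Tbx21, the lineage factors, had log2 ratios of -0.11 and -0.19, and that of Eomes ranged from -0.64 (at most 5% mitochondrial UMIs and at least 500 genes) to 0.044 (states weighted equally).

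Tissue-residency genes went in both directions, with more of them higher than lower in KO. Of 14 measured, 9 were higher in KO (48.8% of all genes were), 4 at least 2-fold (2.36%), and the median was 0.33, or -0.035 in cells with no Cd3, Csf1r or Cd68 UMI. In the states described below, 8 of 9 were higher in Klra4/Klra8 cells, and 7 of 14 in Gzmc/Xcl1 cells. Tnfrsf9 (4-1BB), a costimulatory receptor, was at 227 CPM in WT and 532 in KO, with a UMI in 44.5% and 70.4% of cells. Inpp4b, a lipid phosphatase, was at 42.3 and 104 CPM, Tmem176a at 12.9 and 62.7, and Tmem176b at 17.7 and 47.1. Of 9 measured genes of immature or stem-like cells 6 were lower, none by 2-fold, and their median of -0.16 was 0.15 in cells with no Cd3, Csf1r or Cd68 UMI. Ctla2a was at 1030.1 and 897 CPM and Emb at 364 and 459.6 CPM. Of 10 migration receptors 7 were lower, and the only member at least 2-fold higher was Ccr7 (10.2 and 133 CPM), for which 1 KO cell held 83.5% of the UMIs. It was the cell with 101 UMIs of dendritic cell markers, a list that includes Ccr7. Without that cell Ccr7 was at 23.1 CPM in KO.

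**Figure D3:**
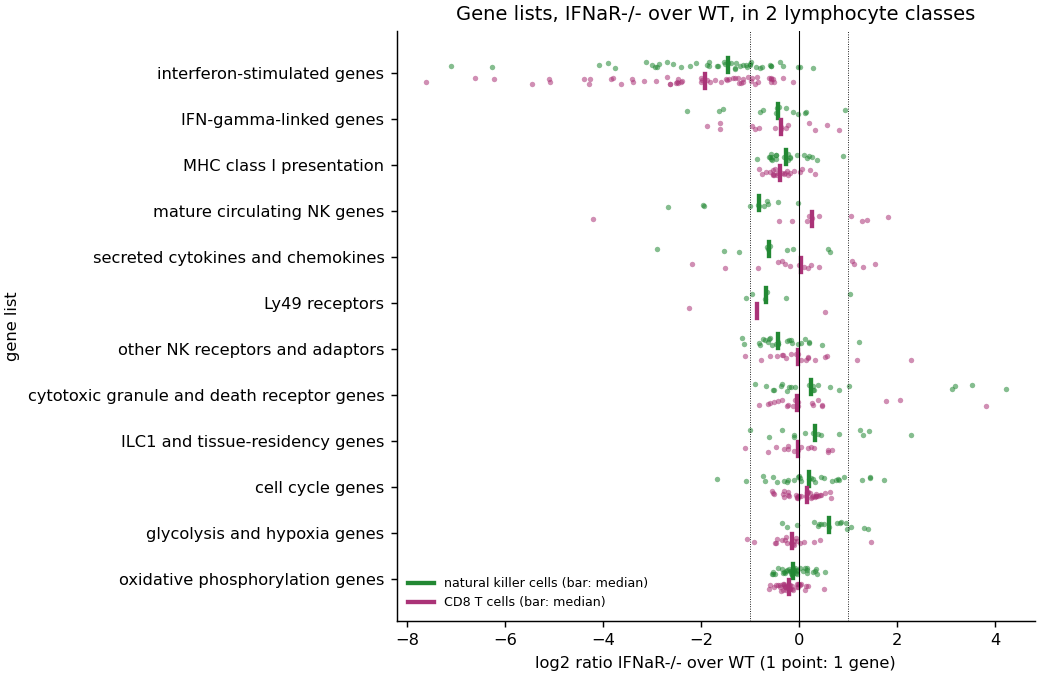
Log2 ratios IFNaR-/- over WT for the measured members of 12 gene lists, in natural killer cells (green) and CD8 T cells (purple) of the same libraries; each point is 1 gene, bars are medians and dotted lines mark 2-fold. The interferon-stimulated lists lie below 0 in both classes (medians -1.46 and -1.93), and the list of mature natural killer genes has a median of -0.83 in natural killer cells and 0.25 in CD8 T cells, a difference that was not tested.

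Cytotoxic genes split in both directions. Of 22 measured, 12 were higher in KO and 10 lower, with a median of 0.23, or -0.062 with every cell thinned to 2000 UMIs. Prf1 (perforin) was at 499 CPM in WT and 867 in KO, Gzmb at 1966 and 2552, Gzma at 7852 and 6076, and Nkg7, a granule membrane protein, at 1859.9 and 989.7. The members at least 2-fold higher were 5 neighbouring granzymes on chromosome 14: Gzmg (47.7 and 885 CPM), Gzmf (194 and 2235), Gzmd (103 and 932), Gzme (67.0 and 582) and Gzmc (3162 and 6399.6). These rest on few cells. Gzmg was found in 2 WT and 4 KO cells, Gzmd in 4 and 7, Gzme in 4 and 5, and Gzmf in 17 and 9, and the top WT cell held 95.3% of the WT Gzmf UMIs. Gzmc was broader, in 57 WT and 24 KO cells. Without the cell of each library that held most Gzmd to Gzmg UMIs, the log2 ratio was 3.38 for Gzmg (4.21 with it), 7.31 for Gzmf (3.53) and 0.76 for Gzmc (1.02). These granzymes are also near-identical, so their counts are uncertain.

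Glycolysis genes were mostly higher in KO natural killer cells. Of 17 measured, 14 were higher (48.8% of all genes were) and 3 at least 2-fold (2.36%), with a median of 0.60. In CD8 T cells 5 of 20 were higher (63% of all genes were), with a median of -0.15. The 4 members under 50 UMIs in natural killer cells summed to 71 UMIs in WT and 45 in KO, or 38.0 and 70.6 CPM. Hk2 (hexokinase, the entry step) was at 26.2 and 69.0 CPM, Pgk1 at 144 and 299.6, and Ldha (lactate dehydrogenase) at 274 and 539.6. Ero1l, an oxidase of the endoplasmic reticulum induced by low oxygen, was at 35.9 and 89.4 CPM. Of 37 oxidative phosphorylation genes 26 were lower, none by 2-fold, with Atp5e at 1003 and 963 CPM and Cox4i1 at 818 and 747 CPM. With every cell thinned to 2000 UMIs the glycolysis median was 0.59, and with at most 5% mitochondrial UMIs and at least 500 genes it was 0.33.

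Cell cycle genes went in both directions. Of 29 measured, 17 were higher in KO and 12 lower, with a median of 0.20 (-0.32 in cells with no Cd3, Csf1r or Cd68 UMI), and 4 passed 2-fold upwards and 2 downwards. All 4 of the higher genes were subunits of the MCM helicase that licenses replication, among them Mcm3 (27.3 CPM in WT and 91.0 in KO) and Mcm5 (37.5 and 102 CPM). The lower ones were Cenpf and Cenpe, which act in mitosis, and for Cenpe, at 27.3 and 7.84 CPM, 4 of the 5 KO UMIs lay in 1 cell. Among 23 heat shock and immediate early genes 15 were lower, with a median of -0.15 that reversed under other settings. Hspa1b, an inducible chaperone, was at 2793 and 2506 CPM, and Hsp90ab1 at 2359 and 3339 CPM.

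Outside the lists, the lowest gene in KO was Ifi27, an interferon-induced relative of Ifi27l2a, at 88.9 CPM in WT and 7.84 in KO (log2 ratio -3.37, and -3.10 in CD8 T cells). Itga2 (CD49b), the integrin recognised by the DX5 antibody on natural killer cells, was at 91.1 and 18.8 CPM, 4.84-fold lower (2.70 to 9.55). As3mt (52 and 2 UMIs), Cdk14 (68 and 3) and Utp14b (52 and 3) were sparse in KO. Hist1h2ae was at 132 and 23.5 CPM, with 73.3% of its KO UMIs in 1 cell.

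The highest genes outside the lists were neighbours on the X chromosome, at X:168795099-169304435 (Arhgap6) and X:169685199-170005736 (Mid1) on GRCm38. Arhgap6, a GTPase-activating protein, had 2 UMIs in WT and 59 in KO, at 1.07 and 92.5 CPM. Mid1, a ubiquitin ligase, was at 11.2 CPM in WT and 480.0 in KO, with a UMI in 46 of 54 KO cells. Both were also higher in the other classes of the KO library: the log2 ratio of Mid1 was 5.38 in natural killer, 6.11 in CD8 T and 3.99 in myeloid cells, and that of Arhgap6 6.12, 7.15 and 3.59. For Fabp5 (13.9 and 212 CPM), Marcks (9.64 and 73.7), Sag (6.43 and 87.8) and Basp1 (15.0 and 124), a single KO cell held 91.9%, 74.5%, 64.3% and 43.0% of the KO UMIs. For Fabp5 this was the cell with 101 UMIs of dendritic cell markers, and without it Fabp5 was at 18.1 CPM in KO.

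Natural killer cells of both libraries were ordered by a score from Klra4 and Klra8 to Gzmc and Xcl1. A cell was placed in the Klra4/Klra8 state when the UMIs of those genes exceeded those of Gzmc and Xcl1 by at least 2, and in the Gzmc/Xcl1 state in the reverse case. The Klra4/Klra8 state held 111 WT cells, 44.9% (38.6 to 51.4%), and 20 KO cells, 37.0% (24.3 to 51.3%). The Gzmc/Xcl1 state held 86 WT cells, 34.8% (28.9 to 41.1%), and 26 KO cells, 48.1% (34.3 to 62.2%). The other 50 WT and 8 KO cells lay between. The intervals of both shares, which cover counting error only, overlapped between the libraries, and a difference between the genotypes was not tested.

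The states are ranges of a score and not separate types. Gzmc and Xcl1 were often found in different cells, so the Gzmc/Xcl1 state joins cells with either gene. In WT, Gzmc had a UMI in 57 cells and Xcl1 in 152. For example, 1 WT cell of this state had 986 Gzmc and 0 Xcl1 UMIs, and another had 0 and 118. At least 2 UMIs of both gene pairs were found in 70 WT and 20 KO cells, and in 30 WT and 6 KO cells the difference was just 2 or 3 UMIs. Cells of the Gzmc/Xcl1 state were deeper, with a median of 7509 UMIs against 5244 in WT and 10361.5 against 6521.5 in KO. With every cell thinned to 2000 UMIs, which left out 5 WT and 2 KO cells, the Klra4/Klra8 state held 37.6% and 25.0% and the Gzmc/Xcl1 state 26.0% and 40.4%.

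**Figure D4:**
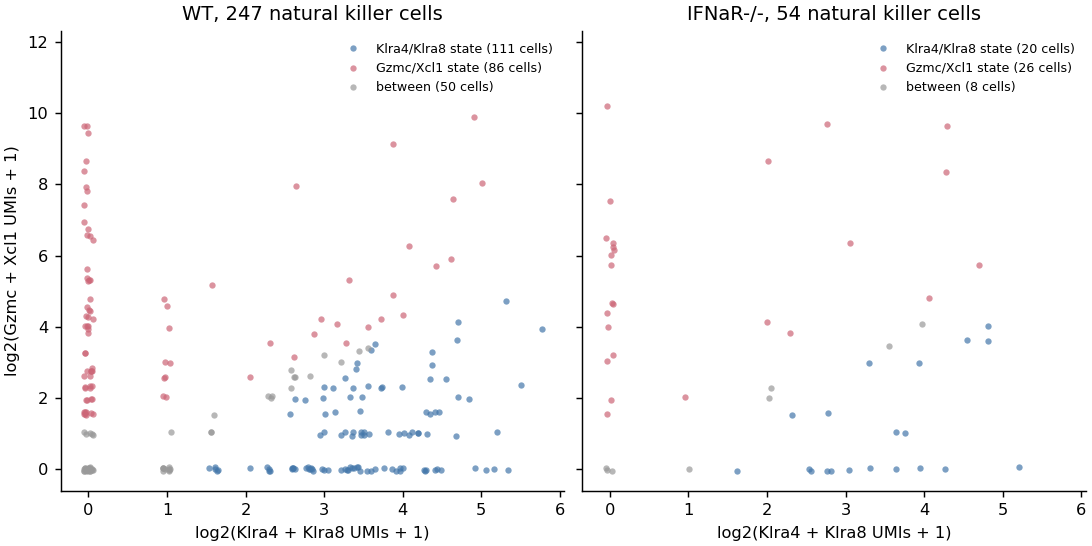
Each point is 1 natural killer cell, with its summed Klra4 and Klra8 UMIs on the x axis and its summed Gzmc and Xcl1 UMIs on the y axis, both as log2(UMIs + 1) with a small jitter; WT cells are on the left and IFNaR-/- cells on the right. Cells spread along both axes with many holding UMIs of only 1 pair, and 70 WT and 20 IFNaR-/- cells held at least 2 UMIs of each.

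Cells of the Gzmc/Xcl1 state carried more of several genes that the states were not chosen on. The states were cut from the same cells' RNA, so these values describe them and test nothing. Of 1681 genes with 50 or more UMIs in each library, 24 (1.43%) were at least 2-fold higher in the Gzmc/Xcl1 state in both libraries and 6 (0.357%) at least 2-fold lower, counting the 4 state genes. With every cell thinned to 2000 UMIs, which leaves fewer genes measured, 3 were higher and 0 lower. Klrc1 (NKG2A), an inhibitory receptor for a nonclassical class I ligand, was at 73.7 CPM in Klra4/Klra8 cells and 207 in Gzmc/Xcl1 cells of WT, and at 46.5 and 168 in KO. Thy1 (CD90) was at 146 and 465 CPM in WT and at 238 and 800.0 in KO. Tnfrsf9 was at 123 and 328 CPM in WT and at 204 and 702 in KO. Klrb1b, an inhibitory receptor, and Inpp4b had log2 ratios of 1.32 and 1.60 in WT and of 2.19 and 2.93 in KO. The state with Gzmc and Xcl1 was thus also the one with more Klrc1, Thy1 and Tnfrsf9 in both libraries.

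Other genes also differed between the states. Ifitm3, of the interferon-stimulated list, was at 70.8 and 447 CPM in WT and at 17.5 and 476 in KO. Ifitm1 was at 299 and 1635 CPM in WT and at 93.1 and 2005 in KO. S100a4, a calcium-binding protein of motile cells, was at 75.2 and 231 CPM in WT, and had log2 ratios of 1.61 in WT and 5.84 in KO, where 1 UMI lay in Klra4/Klra8 cells. Lgals3 (galectin-3) was at 98.3 and 311 CPM in WT and at 34.9 and 268 in KO, and Bcl2a1b, a survival gene with near-identical copies, at 24.6 and 69.6 and at 23.3 and 124. Sema6d and AA467197 had log2 ratios of 2.21 and 1.95 in WT and of 3.93 and 2.83 in KO. Gzmg and Gzme were at 0 in WT Klra4/Klra8 cells and at 98.3 and 138 CPM in WT Gzmc/Xcl1 cells, at least 22.7-fold and 31.8-fold higher against a floor of 3 counts. In a single WT cell lay 97.8% of the WT Gzmg UMIs.

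Cells of the Klra4/Klra8 state carried more chemokine and maturation RNA. Ccl5 was at 8613 CPM there and 2696 in Gzmc/Xcl1 cells of WT, and at 1012 and 376 in KO. Ccl3 was at 437 and 196 CPM in WT and at 291 and 68.3 in KO, and Zeb2 at 318 and 101 in WT and at 250.1 and 41.5 in KO. Fryl was at 279 and 138 CPM in WT and at 157 and 78.0 in KO. All 5 maturation genes measured in both libraries were lower in Gzmc/Xcl1 cells of both (30.5% of all genes were), with medians of -0.94 in WT and -1.46 in KO. Of 11 glycolysis genes 10 were higher there in both (30.9% of all genes were), with medians of 0.32 and 0.57. Of 11 cell cycle genes 2 were higher in both and none lower in both, and the medians had opposite signs, 0.70 in WT and -0.34 in KO.

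**Figure D5:**
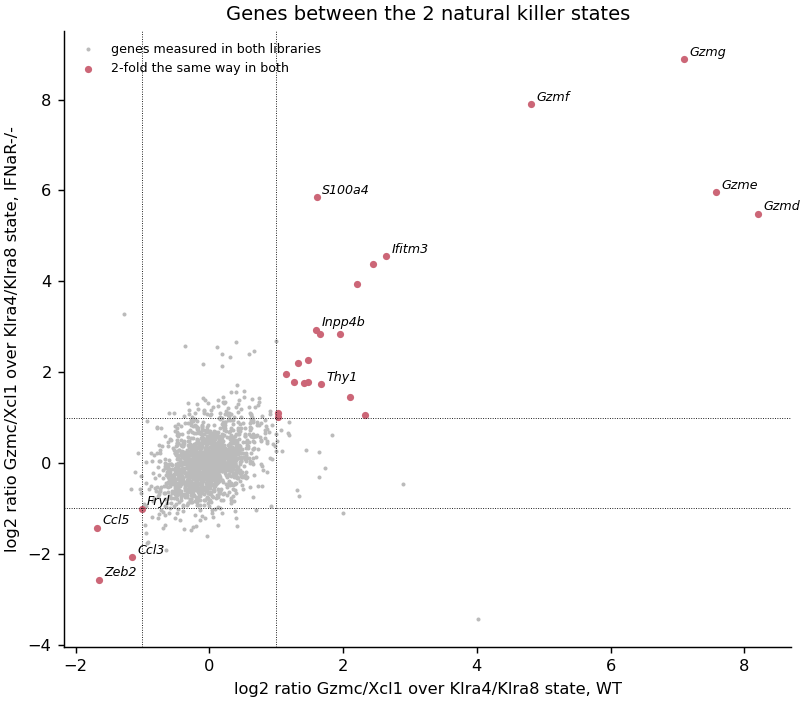
Log2 ratios of the Gzmc/Xcl1 over the Klra4/Klra8 state in WT (x axis) and IFNaR-/- natural killer cells (y axis), 1 point per gene with 50 or more UMIs in each library, without the 4 genes that define the states; dotted lines mark 2-fold and red points pass it the same way in both. Thy1 (1.67 and 1.73) and Inpp4b (1.60 and 2.93) lie at the upper right, and Ccl5 (-1.68 and -1.43) and Zeb2 (-1.66 and -2.57) at the lower left.

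The lower interferon-stimulated RNA of KO was found in both states. In the Klra4/Klra8 state all 26 measured members were lower (55.3% of 2603 genes were), 17 at least 2-fold (5.46% of genes were), with a median of -1.48. In the Gzmc/Xcl1 state 29 of 30 were lower (48.3% of 3649 genes were), 17 at least 2-fold (3.48% of genes were), with a median of -1.18. Isg15 had 58 and 0 UMIs in the first and was at 92.8 and 17.1 CPM in the second.

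Ccl5 was lower in KO within each state, 8.51-fold (7.32 to 9.95) in Klra4/Klra8 cells and 7.18-fold (6.10 to 8.50) in Gzmc/Xcl1 cells. Ccl4 was at 1232 CPM in WT and 657 in KO in Klra4/Klra8 cells, and at 653 and 195 in Gzmc/Xcl1 cells. Itgam was at 119 and 34.9 CPM in Klra4/Klra8 cells, and Ly6c2 at 335 and 23.3. The maturation list was lower for 8 of 9 genes in the first state (55.3% of all genes were), with a median of -0.49. In the second it was lower for 8 of 8 (48.3% of all genes were), with a median of -0.87. Prf1 was at 578 and 494 CPM in Klra4/Klra8 cells and at 400 and 1063 in Gzmc/Xcl1 cells. Ldha was at 240 and 326 CPM in the first and at 290 and 632 in the second, and the glycolysis list was higher for 7 of 11 genes in the first (44.7% of all genes were) and 14 of 16 in the second (51.7%). Lower Ccl5 and interferon-stimulated RNA in KO were thus seen within both states. Prf1 was 2.66-fold higher in KO in the Gzmc/Xcl1 state (2.31 to 3.07). In the other state it was not separated from equality (KO over WT ratio 0.855, 0.668 to 1.08). The make-up of the Gzmc/Xcl1 state differed between the libraries. Gzmc was at 6485 CPM there in WT and 9890 in KO, and Xcl1 at 1689 and 802. Its median cell held 15 UMIs of these genes together in WT and 50.5 in KO. Ratios within this state thus do not hold the mix of Gzmc and Xcl1 cells equal.

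The anti-PD1 libraries held almost no cells that met the rule. There were 0 of 9464 kept cells in WT, which by the floor of 3 counts allows a share of up to 0.0317% (upper bound of the exact 95% interval 0.0390%), and 1 of 8476 in KO, 0.0118% (0.000299 to 0.0657%). Over all kept cells, Ncr1 was at 12.6 CPM in untreated WT and 6.33 in untreated KO, and had 2 and 0 UMIs in the WT and KO libraries after anti-PD1. Klra8 was at 29.0 and 9.47 CPM in the untreated libraries and had 0 and 2 UMIs in the anti-PD1 libraries. Eomes, which T cells also express, was at 28.7 and 14.7 CPM in the untreated and 1.00 and 2.25 CPM in the anti-PD1 libraries. In the anti-PD1 groups CD3+ and CD3- cells were mixed in equal parts for the sort. An untreated and an anti-PD1 library shared 0 to 2 cell barcodes, against 95 between the anti-PD1 libraries, although the labels name the same kit for all. That sort, the day, the treatment, the barcodes and the version of the authors' software cannot be told apart.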

How the data were processed

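The deposited values were raw counts (UMIs of a gene in a barcode), not normalized, made with Cell Ranger 3.1.0 for the untreated and 7.2.0 for the anti-PD1 libraries, per the file headers. The builds were mm10 and GRCm38, per the submitters' processing notes, and a 5′ kit is named for all libraries, per the labels' protocols, although the untreated and anti-PD1 libraries differed in their barcodes. The settings for cell calling and intronic reads are not given in the sources used here. The untreated libraries held 6662 (WT) and 3705 (KO) barcodes with 48270410 and 32410040 UMIs, of which 5264 and 2810 cells were kept.

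The work was done in Python 3.11.15 with pandas 2.3.3, scipy 1.17.1, numpy 2.4.6 and scanpy 1.11.5. UMIs of the chosen cells were summed per library and scaled to CPM. Log2 ratios used a pseudocount of 0.5 counts and genes with 50 or more UMIs in the pair. Where a group had 0 counts, a fold was taken against a floor of 3 counts in that group's sum. Intervals are exact Poisson for levels, Clopper-Pearson for shares and conditional binomial for ratios, at 95%. CD8 T cells had at least 3 Cd3 and 2 Cd8a and Cd8b1 UMIs and at most 1 natural killer or Csf1r and Cd68 UMI. Myeloid cells had at least 3 Csf1r and Cd68 UMIs and at most 1 of the others. The summing and the ratios were tested on simulated data.

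The members and the 27 gene lists were chosen with earlier results of these data known. Named genes were, per list, up to 3 members with the largest ratio at least 2-fold with an interval excluding 1, or else the 2 with most UMIs. Outside the lists they were the 6 highest and 6 lowest, leaving out receptor segments, mitochondrial, ribosomal, haemoglobin and unnamed genes and genes of the Y chromosome and X inactivation. The states followed the same rule in both libraries. One gene that the rule named is not reported here. Isg15, Ifit3, Irf7, Ly6e, Ifitm3, Gzma, Gzmb, Gzme, Prf1, Nkg7, Ifng, Il18r1, Il18rap, Tbx21, Ldha and Cenpf were added after their values were seen. Alternatives were stricter and looser cell filters, 5 natural killer UMIs, no Cd3, Csf1r or Cd68 UMI, Scrublet removal, thinning, TMM factors (edgeR 4.0.16), DESeq2 1.42.0 size factors in R 4.3.3, equal cell weights, equal state weights, other minimum counts, a pseudocount of 5 and other state limits. Scrublet's automatic threshold marked 54 WT and 0 KO cells, so doublets were kept in the main values, and removal at a nominal rate took 355 and 110 cells, with 3 and 2 natural killer cells among them.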

Additional observations from a re-analysis of the deposited data

Results flagged for a closer look

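For 4 of the named genes the KO over WT log2 ratio had opposite signs in the natural killer states with both counting intervals excluding equality, and the difference was not tested. S100a4 had -3.12 in the Klra4/Klra8 state, where the KO library had 1 UMI, and 1.11 in the Gzmc/Xcl1 state. Ifitm1 had -1.64 and 0.29, with 16 KO UMIs in the Klra4/Klra8 state. Hspa1b had 0.71 and -0.86, and Ctla2a 0.34 and -0.43. Each state value comes from 1 library per genotype, with 20 and 26 KO cells.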

How the results depend on the processing

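Each result was recomputed under 15 planned settings and 2 chosen after seeing the data, the latter without the cells that held UMIs of another class and without the top granzyme cell of each library. The lower natural killer share in KO held throughout (log2 ratio -1.66 to -0.89), as did the interferon-stimulated (-1.67 to -1.18), maturation (-0.87 to -0.53) and glycolysis (0.33 to 0.85) medians. At most 5% mitochondrial UMIs, thinning to 2000 UMIs, equal cell weights and equal state weights turned the heat shock median to 0.0844, 0.0542, 0.0877 and 0.0527, and Hspa1b to 0.0844, 0.22, 0.12 and 0.14. Ctla2a was 0.0089 without any Cd3, Csf1r or Cd68 UMI, and H2-K1 0.00019 after thinning. Klra3 was 0.21 after thinning. Ifnar1 went from 0.020 to -0.29 after thinning. Other medians also changed sign: without any Cd3, Csf1r or Cd68 UMI the tissue-residency, cell cycle and immature lists were -0.035, -0.32 and 0.15, and thinning gave the cytotoxic, JAK and transcription factor lists -0.062, -0.34 and 0.054. The causes were not tested.

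Counts of genes moved with the settings. Thinning, which leaves fewer UMIs, gave 84 genes at least 2-fold lower and 31 higher in KO, 3 higher and 0 lower between the states, and 37.6% and 26.0% of WT cells in the Klra4/Klra8 and Gzmc/Xcl1 states. Equal cell weights gave 211 higher genes in KO and 3 lower between the states. A minimum of 10 UMIs, which tests more genes, gave 709 lower and 626 higher in KO and 101 higher and 40 lower between the states, and no minimum gave 1263, 1921, 351 and 344. A pseudocount of 5 gave 79 lower genes. A state difference of 5 UMIs gave 36.4% and 24.3% of WT cells in the states and 11 lower genes. Asking for at least 2 UMIs of 1 pair and at most 1 of the other gave 31.2% and 26.3% in WT and 24.1% and 31.5% in KO. The other 131 main values stayed within their counting intervals or, for counts of genes, close to the main count. Of single genes and lists 1637 values stayed within the main counting interval, 25 of them with a change of sign, and 158 moved outside it without one. No paired analysis was possible because each group has 1 library. Depth limits genes under 50 UMIs, and 54 KO cells limit every share.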
